A study of Homo sapiens with 19 samples.

Results

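The regions described here are faint V5 intervals that both untreated C4-2 lines share and that neither doxycycline list nor either RB list contains. An interval is a stretch of the genome where MACS2 called more reads than its local background. Members were taken from the untreated K185R V5 list by 3 conditions: overlap by at least 1 base with the untreated wild-type (WT) V5 list, no overlap with the doxycycline list of either protein, and no overlap with the RB lists of C4-2 or VCaP cells. In all, 1432 of the 55681 intervals of the untreated K185R list met them, out of 203381 intervals in the 10 lists of the series. The members were thus chosen by the presence or absence of intervals in these 6 lists, so every value taken from them is a description without a test. The 4 lists of cells given GSK2879552 were not used in the choice.

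E2F1 is a transcription factor that switches on genes for entry into DNA synthesis, and the retinoblastoma protein RB binds E2F factors and holds this activity back. LSD1 (KDM1A) removes methyl groups from histone H3 lysines and from some other proteins. GSK2879552 blocks LSD1 irreversibly. K185R swaps 1 lysine of E2F1 for arginine, so that this position can no longer carry a methylated lysine. The V5 tag is a short peptide fused to a protein so that 1 antibody can pull it down, and tetracycline-controlled transgenes are usually switched on by doxycycline.

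All V5 chromatin came from C4-2, an established castration-resistant prostate cancer line, grown in RPMI medium with 5% charcoal-stripped serum, which is poor in androgen. The cells carried tet-controlled E2F1, either WT or K185R, and each of the 8 V5 groups had 2 libraries. Untreated cells gave the lists that hold the members. Doxycycline cells received 0.25 ug/ml for 3 days, GSK2879552 cells 50 uM for 24 hours, and the last groups doxycycline and then GSK2879552 at the same doses. RB was mapped in untreated C4-2 (2 libraries) and, as 1 library, in untreated VCaP, another prostate cancer line, kept in DMEM with the same serum. Each group was deposited as 1 list, so no value below has a replicate error, and no comparison between lists has a replicate check. Whether each V5 line is 1 clone, and how much tagged protein untreated cells made, is not given in the sources used here, so the members are called V5 intervals and not E2F1 sites. The files of the groups labelled doxycycline carry siRB in their names and those of the groups labelled untreated carry siNTC; the groups follow the labels.

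Depth, solved from the deposited values as the lowest local background per kilobase, was 1.79 reads per kilobase in the untreated K185R list and 1.21 in the untreated WT list. It was 1.40 in the WT and 1.12 in the K185R doxycycline list, and 0.72 to 1.02 in the GSK2879552 lists. The lists held 15099 intervals in untreated WT, 64025 and 22328 with doxycycline (WT and K185R), and 2805 to 9899 with GSK2879552. The faintest interval of each V5 list had 3 reads at its summit, the base of highest coverage. A place without an interval has no value in these files, so a weaker signal and no signal cannot be told apart there.

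Of the 55681 untreated K185R intervals, 3507 overlapped the untreated WT list (6.30%), and at the authors' threshold the members are the largest class among them. With every list held to a −log10 q of at least 5 this turned, and 42 of the 287 shared intervals without RB (14.6%) met the rule. That threshold also thins the doxycycline and RB lists, and only 12 of the 1432 members reach it in both untreated lists. Most of the 42 are thus regions with a weaker doxycycline or RB interval. An RB interval lay at 781 of the 3507 (22.3%), in C4-2 at 764 and in VCaP at 265. Across the whole K185R list, an RB interval lay at 1.88% of intervals. Of the 2726 shared intervals without RB, 600 had an interval in the WT doxycycline list alone, 205 in the K185R doxycycline list alone and 489 in both. The remaining 1432 (52.5%) had none and are the members. Lack of a doxycycline interval was common in the K185R list as a whole, at 76.6% of intervals. Each member overlapped a single WT interval, and 1431 different WT intervals were involved.

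The members were faint in both lists that define them. In the untreated K185R list their summits held 3 to 239 reads with a median of 5 and quartiles of 4 and 6. In the untreated WT list they held 3 to 232 reads, also with a median of 5, and quartiles of 4 and 5. The members were chosen as intervals called in both lists at the caller's threshold, so these medians are a description. Both whole lists have a median of 5 as well. The K185R summit held more reads in 609 members, the WT summit in 415, and the reads were equal in 408, without scaling for the greater depth of the K185R list. Summits of 5 or fewer reads made up 67.3% of the members in K185R and 79.7% in WT, beside 65.8% and 71.5% of the whole lists. In 817 members (57.1%) both lists had 5 or fewer reads.

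Shared intervals that also had a doxycycline interval were higher, with a median of 6 reads in K185R and an upper quartile of 10. Shared intervals at RB sites had a median of 33 reads in K185R and 26 in WT. In K185R, 39.0% of the shared intervals with a doxycycline interval had 5 or fewer reads, and 14.0% had 15 or more, against 0.908% of the members. Members therefore fill the low end of the shared intervals, as the plot of summit reads shows.

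**Figure D1:**
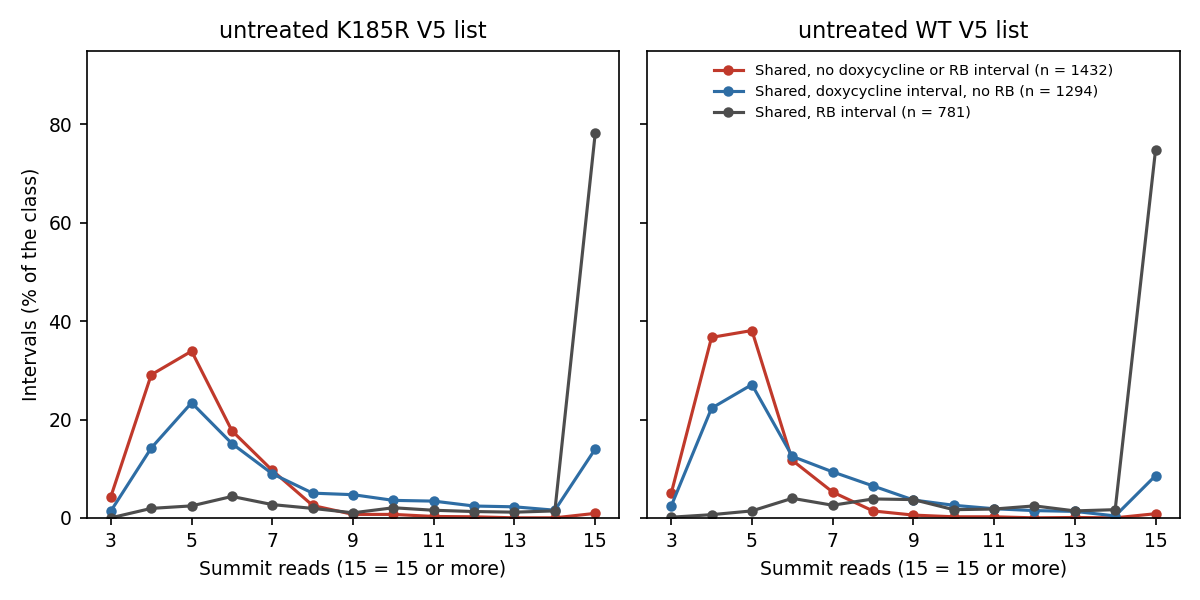
Share of intervals (y axis, percent of the class) by reads at the summit (x axis, 15 standing for 15 or more) in the untreated K185R list (left) and the untreated WT list (right), for the 1432 members (red), the 1294 shared intervals with a doxycycline interval (blue) and the 781 at RB sites (dark grey). Members peak at 5 reads in both lists, while 78.2% of the intervals at RB sites have 15 or more in K185R.

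The fold enrichment of the authors, a ratio of summit reads to local background, had a median of 4.72 in K185R (1.48 to 8.84) and 4.83 in WT (1.52 to 8.27). The medians of the whole lists were 4.71 and 4.83. The −log10 q of the members ran from 1.31 to 9.67 in K185R with a median of 2.89, and from 1.34 to 8.41 in WT with a median of 2.91. A −log10 q of at least 5 was reached by 85 members in K185R (5.94%), by 61 in WT (4.26%) and by 12 in both. In the whole lists 6.36% and 9.74% of intervals reached it. By these medians the members resemble the whole untreated lists, while in WT a smaller share of them reached the threshold of 5.

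In the untreated K185R list, most members sat near the lowest background of the list. The floor is the genome-wide expectation of a list, and 60.2% of members lay within 5% of it in K185R, beside 52.1% of the whole list. In untreated WT the members' median background was 1.07 times the floor, with an upper quartile of 1.24. The whole WT list had a median of 1.16 and an upper quartile of 1.32. A background 10 or more times the floor, called high below, was found at 10 members (0.698%). Among shared intervals with a doxycycline interval this was 5.95%, and at RB sites 55.6%. Members were narrow: the median width was 158 bases in K185R and 161 in WT. The smallest width of the list was found in 45.0% of members in K185R, where it was 152 bases, and in 61.1% in WT, where it was 161 bases. The corresponding shares of the whole lists were 50.1% and 60.1%.

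The 2 untreated lists placed the members at nearby but rarely identical positions. Summits lay a median of 52.5 bases apart, at most 279, and within 100 bases in 79.2% of members. At RB sites the median distance was 9 bases, and at shared intervals with a doxycycline interval 39 bases. Summit reads in K185R and WT ran together weakly across members. Spearman's rho was 0.11 and Pearson's r 0.35 over the 1422 members of low background. With any background included, rho was 0.14 over the 1432 members and 0.70 over the 1294 shared intervals with a doxycycline interval. Members span fewer read values, with K185R quartiles of 4 and 6 against 5 and 10, and the part of this in rho was not tested. These correlations are across regions of the same 2 lists, which share the caller and its threshold.

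At the edge of the overlap condition, 34 members met their WT interval over 20 bases or less. They had a median of 5 reads and a fold of 4.60. The 25 K185R intervals that missed a WT interval by 20 bases or less, with no doxycycline or RB interval, had a median of 5 reads and a fold of 4.72. At the edge of the doxycycline condition, 11 members had a doxycycline interval within 20 bases, and 14 shared intervals were left out for an overlap of 20 bases or less. Both had a median of 4 reads and a fold of 3.93.

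With GSK2879552, few members had an interval. The share in at least 1 list was close to that of all untreated K185R intervals, and the share in at least 2 lists was lower (0.838% against 1.94%). The WT GSK2879552 list had an interval at 25 members (1.75%, 95% Wilson interval 1.19 to 2.56), against 1.86% of all untreated K185R intervals. The K185R GSK2879552 list, the longest of the 4, had one at 67 members (4.68%, 3.70 to 5.90), against 4.63%. With doxycycline and GSK2879552 the WT list had one at 22 members (1.54%, 1.02 to 2.32), against 2.28%. The K185R list with both had one at 19 members (1.33%, 0.851 to 2.06), against 2.20%. Among the 4 single lists, this was the only share whose interval lay below the background. In all, 118 members (8.24%, 6.93 to 9.78) had an interval in at least 1 GSK2879552 list, against 7.06%. The remaining 1314 had none. With every list held to a −log10 q of at least 5, the rule found 42 regions. Of these, 15 (35.7%, 23.0 to 50.8) were in at least 1 GSK2879552 list, against 25.7% of the 3542 K185R intervals at that threshold. Most of the 42 are not among the 1432 members, since they have a doxycycline or RB interval below that threshold. Without the WT doxycycline list among the exclusions, 2032 regions met the rule and 12.1% of them were in at least 1 GSK2879552 list. The Wilson intervals cover counting over regions only, and PCR reads without molecular identifiers are not independent molecules.

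The whole-list background mixes recurrent and isolated intervals, and the members lay between these. Among the 1294 shared intervals with a doxycycline interval and no RB, the 4 GSK2879552 lists had an interval at 14.6%, 28.3%, 18.2% and 16.9% in the order above. The mean over the lists was 19.5%, against 2.32% for the members, a difference of -17.2 percentage points with members lower in 4 of 4 lists. Among the 781 shared intervals at RB sites, the lists had one at 65.9%, 77.1%, 72.9% and 61.8%, a mean of 69.4%. Members were lower there too in 4 of 4 lists. The 40984 K185R intervals with neither a WT, a doxycycline nor an RB interval gave 0.378%, 2.26%, 0.529% and 0.749%. Their mean was 0.980%, so the members' share was 2.37 times as high, and higher in 4 of 4 lists. The 8682 WT intervals of the same kind gave 0.564%, 2.15%, 0.921% and 0.864%, a mean of 1.13%, with members again higher in 4 of 4. These orders are a description: the classes were themselves cut by how many other V5 or RB lists hold an interval, so their recurrence in further V5 lists is not independent of the choice. The 4 lists differ in treatment and are not replicates, and an exact two-sided sign-flip permutation test over them cannot go below p = 0.13, so no test is given for these differences.

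**Figure D2:**
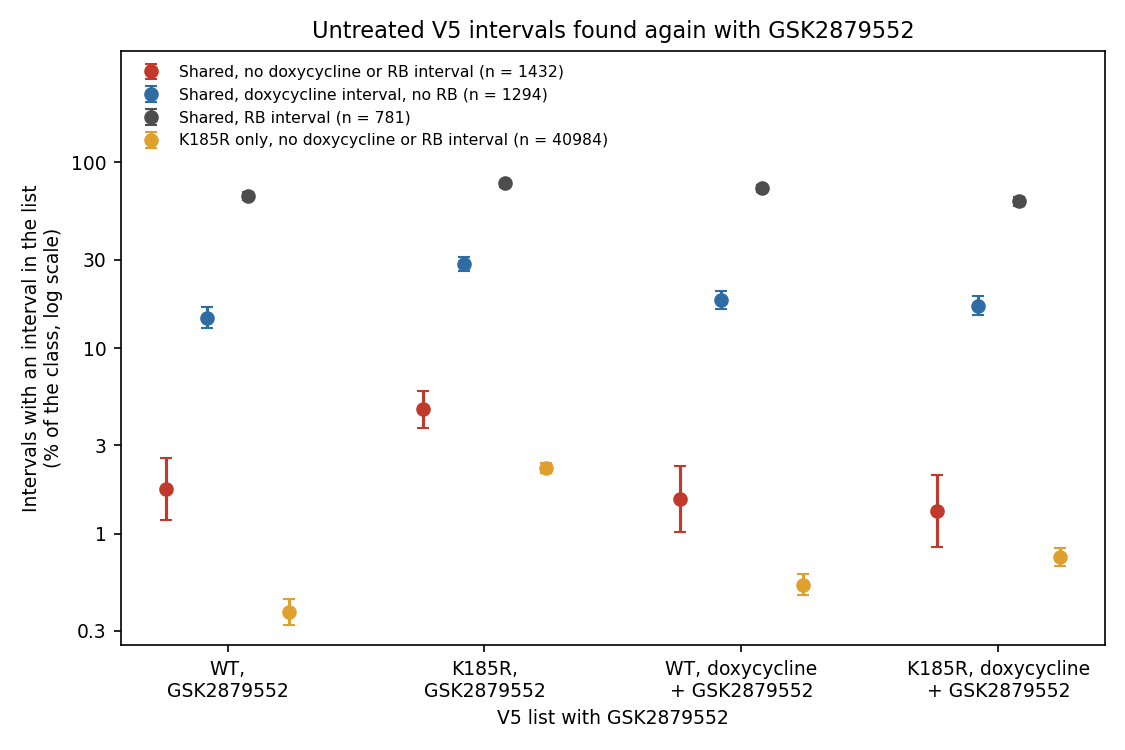
Share of intervals found in each of the 4 V5 lists with GSK2879552 (x axis), in percent of the class on a log scale (y axis), with 95% Wilson intervals as bars, for the 1432 members (red), shared intervals with a doxycycline interval (blue), shared intervals at RB sites (dark grey) and K185R intervals seen in no other untreated, doxycycline or RB list (orange). In every list the members lie above the orange and below the blue points.

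A mirror class gave shares near those of the members, except in the WT GSK2879552 list. It holds the 2850 K185R doxycycline intervals that overlapped the WT doxycycline list and no untreated or RB interval. The 4 GSK2879552 lists had an interval at 0.596%, 3.96%, 1.54% and 1.40% of them, a mean of 1.88%. Members were higher in 2 of 4 lists, by 0.445 percentage points on average. The difference rested mainly on the WT GSK2879552 list, with 1.75% of members and 0.596% of the mirror class.

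The share with GSK2879552 also differed by class among intervals of similar summit reads in K185R; reads in WT were not matched. Among low-background members, 31 of 478 with 3 or 4 reads in K185R had an interval in at least 1 GSK2879552 list (6.49%). The share was 6.58% at 5 reads, 9.45% at 6 and 10.9% at 7 or 8. Of the 30 members with 9 or more reads, 10 had one (33.3%, Wilson interval 19.2 to 51.2). Shared intervals with a doxycycline interval gave 12.9%, 17.2%, 25.5%, 39.8% and 75.5% in the same classes. K185R intervals seen in no other untreated, doxycycline or RB list gave 3.60%, 3.62%, 3.93%, 4.15% and 5.99%. Up to 8 reads, the members lay between the other classes in each of the 4 steps. The step of 9 or more reads is open and holds unequal reads, since low-background members reached 17 at most while 14.0% of the shared intervals with a doxycycline interval, any background included, had 15 or more. Within the members, the share was highest where the K185R summit held the most reads.

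**Figure D3:**
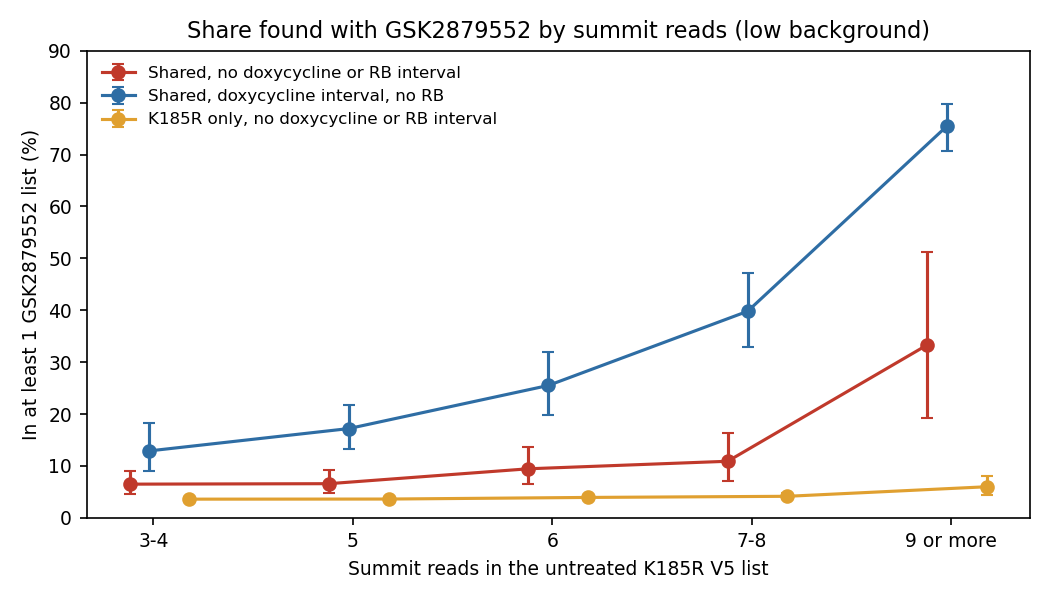
Share of low-background intervals found in at least 1 GSK2879552 list (y axis, percent, bars are 95% Wilson intervals) by summit reads in the untreated K185R list (x axis), for members (red), shared intervals with a doxycycline interval (blue) and K185R-only intervals (orange). Members run from 6.49% at 3 or 4 reads to 33.3% at 9 or more, where 30 regions are counted.

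Members found with GSK2879552 were mostly found once. Of the 118, 106 were in exactly 1 of the 4 lists, 10 in 2, 1 in 3 and 1 in all 4. At least 2 lists held 0.838% of the members, against 1.94% of all untreated K185R intervals and 0.129% of those seen in no other untreated, doxycycline or RB list. The share was 21.7% of the shared intervals with a doxycycline interval and 78.0% of those at RB sites. Only lists of K185R cells held 73 of the 118 and only lists of WT cells 36, while 9 were in lists of both proteins. The lists with GSK2879552 alone held 78 that no list with both agents held, and 30 were found only with both agents. No member was in both WT lists and in neither K185R list, and 3 were in both K185R lists and in neither WT list. The K185R list with GSK2879552 alone was the longest and deepest of the 4, and its part in these counts was not tested. Of all untreated K185R intervals, 4.63% overlapped that list and 1.86% to 2.28% each of the others. The splits by protein and by agent were not counted over all untreated K185R intervals, so they give no trait of the members.

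Members found again had levels near those of the rest. In the K185R untreated list both the 118 and the 1314 others had a median of 5 reads, with folds of 4.72 and 4.71. In WT the medians were 5 reads in both, with folds of 4.95 and 4.83. Their upper quartiles differed slightly, at 7 against 6 reads in K185R and 6 against 5 in WT. The intervals that the GSK2879552 lists placed at members had median summit reads of 5 in each of the 4 lists. The whole lists had medians of 6 reads for WT with GSK2879552 and 5 for the others. Members' intervals made up 0.891% of the WT GSK2879552 list, 0.687% of the K185R one, and 0.568% (WT) and 0.543% (K185R) of the lists with both agents.

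The region with the widest recurrence lay on chromosome 4 at 154050517 to 154050729 (hg19, as the coordinates below). It had 8 reads and a fold of 5.93 in untreated K185R, and 11 reads and a fold of 8.27 in untreated WT. With GSK2879552 it had 5 reads in WT and 8 in K185R, and with both agents 6 reads in WT and 5 in K185R. It was thus present in all 6 V5 lists without doxycycline alone, at folds of 4.54 to 8.27, and in no list with doxycycline alone. Its nearest doxycycline interval was 6.54 kb away, and an RB interval lay 1.19 kb away. The region in 3 GSK2879552 lists, named after its values were seen, lay on chromosome 11 at 131165302 to 131165468. It had 6 reads in untreated K185R and 7 in untreated WT, then 5 in WT and 7 in K185R with GSK2879552, and 5 in WT with both agents.

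Each of the 3 regions found in both K185R GSK2879552 lists and in neither WT one was also in untreated WT cells, as the rule requires. On chromosome 5 at 169011866 to 169012035, K185R had 10 reads untreated, 6 with GSK2879552 and 6 with both agents, and WT had 5 untreated. On chromosome 17 at 17820090 to 17820333, K185R had 11, 7 and 4 reads in the same order, and WT had 9 untreated. On chromosome 10 at 79231078 to 79231369, K185R had 5, 6 and 6 reads, and WT had 7 untreated. These reads are not scaled for the lists' depths, so they give no order between lists.

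The 10 members of highest −log10 q in K185R at low background had 9 to 12 reads there and 4 to 9 in WT. The first was on chromosome 11 at 134526551 to 134526815, with 12 reads and a fold of 8.84 in K185R and 8 reads and a fold of 6.65 in WT. It had 12 reads and a fold of 8.80 in WT with both agents, and no interval in the other GSK2879552 lists. On chromosome 17 at 6385243 to 6385472, K185R had 11 reads and WT 7, and WT with GSK2879552 had 9. On chromosome 7 at 32437381 to 32437556, K185R had 10 reads and WT 8, and K185R with GSK2879552 had 6. On chromosome 12 at 42870149 to 42870395, K185R had 10 reads and WT 4, followed by 7 in K185R with GSK2879552 and 4 in WT with both agents. These 4 regions kept an interval in 1 or 2 of the 4 lists, as did the regions on chromosome 5 and chromosome 17 at 17820090 described above.

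The other 4 of these 10 strong members had no interval in any GSK2879552 list. On chromosome 2 at 173821172 to 173821425, K185R had 10 reads and WT 5. The same reads were found on chromosome 9 at 126915764 to 126915998. K185R had 9 reads and WT 4 on chromosome 16 at 61067776 to 61067970. The pair of lists had 9 and 5 on chromosome 9 at 96267349 to 96267526. Thus 6 of the 10 had an interval in at least 1 GSK2879552 list, beside 8.24% of all members. Among the 18 low-background members with at least 8 reads in both untreated lists, 7 had one (38.9%). Of the 12 members with a −log10 q of at least 5 in both untreated lists, 4 had an interval with GSK2879552. No share of other intervals chosen in the same way is at hand for these 3 counts. Low-background shared intervals with a doxycycline interval also recurred most at 9 or more K185R reads, at 75.5%. For K185R-only intervals the share was 5.99% there (Wilson interval 4.43 to 8.05) and 4.15% at 7 or 8 reads (3.62 to 4.75). Shared intervals at RB sites showed no such rise from 5 reads on, with 94.7% at 5 and 93.0% at 9 or more.

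Members were spread over all chromosomes but the mitochondrial genome, in proportions close to those of the whole K185R list. Chromosome 2 held 136 members (9.50%, Wilson interval 8.09 to 11.1), beside 7.86% of the K185R list, and was the one chromosome whose interval lay above the list's share. Chromosome Y held 2 members, and chromosome X 59 (4.12%). On gene-rich chromosome 19 there were 18 members and on gene-poor chromosome 18 there were 43, a ratio of 0.419. The ratio was 0.657 in the whole K185R list and 0.703 in the whole WT list. It was 0.579 among shared intervals with a doxycycline interval and no RB, and 2.87 in the C4-2 RB list. For both chromosomes the members' Wilson interval held the K185R list's share. Chromosome 17 held 3.28% of members and 5.51% of C4-2 RB intervals, and chromosome 19 held 1.26% and 4.75%. The members are by rule a subset of the K185R list without RB overlap, so these shares are a description.

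**Figure D4:**
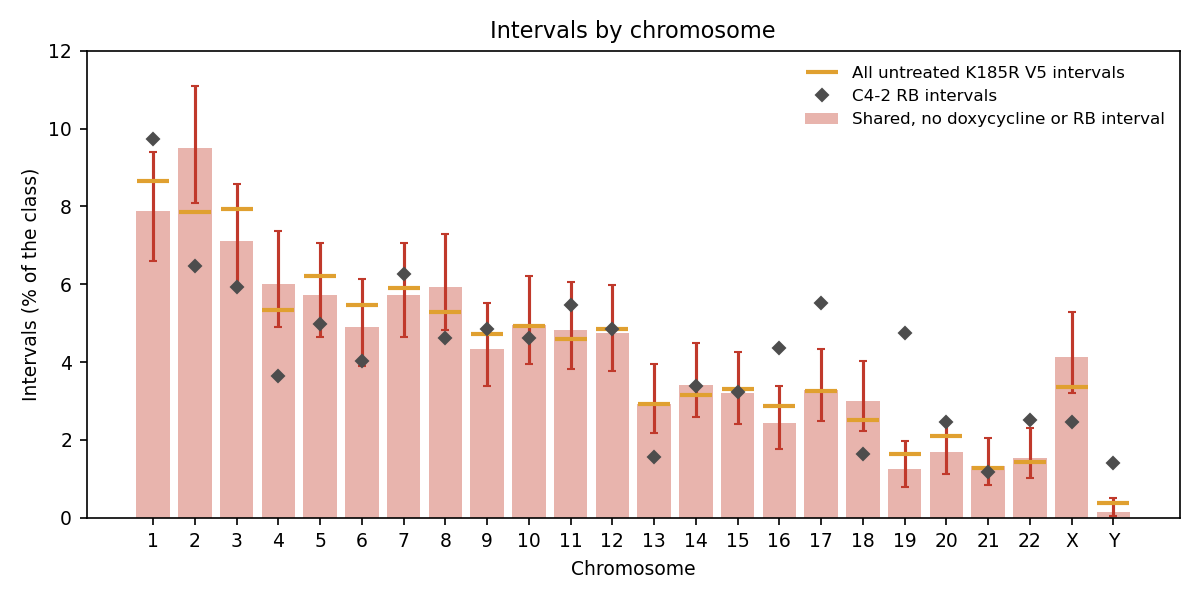
Share of intervals (y axis, percent of the class) on each chromosome (x axis) for the 1432 members (bars, with 95% Wilson intervals), all 55681 untreated K185R intervals (orange dashes) and the C4-2 RB list (dark diamonds). The members, a subset of the orange list, lie near its dashes, and on chromosome 19 the RB list has 4.75% of its intervals against 1.26% of members.

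The shares of members near an RB or a doxycycline interval were close to those of untreated K185R intervals in general. The nearest RB interval of either line was a median of 69.4 kb away. It was within 1 kb at 26 members (1.82%) and within 10 kb at 160 (11.2%). Among all K185R intervals without RB overlap these shares were 1.35% and 13.0%, and among shared intervals with a doxycycline interval 4.95% and 18.3%. The nearest doxycycline interval was a median of 11.5 kb away and within 1 kb at 91 members (6.35%), beside 5.98% of all K185R intervals without doxycycline overlap. A GSK2879552 interval lay within 1 kb of 143 members, of which 118 overlapped it. The same share over all untreated K185R intervals was not counted. The rule excludes only overlap, so the distances beyond it are a description of spacing.

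**Figure D5:**
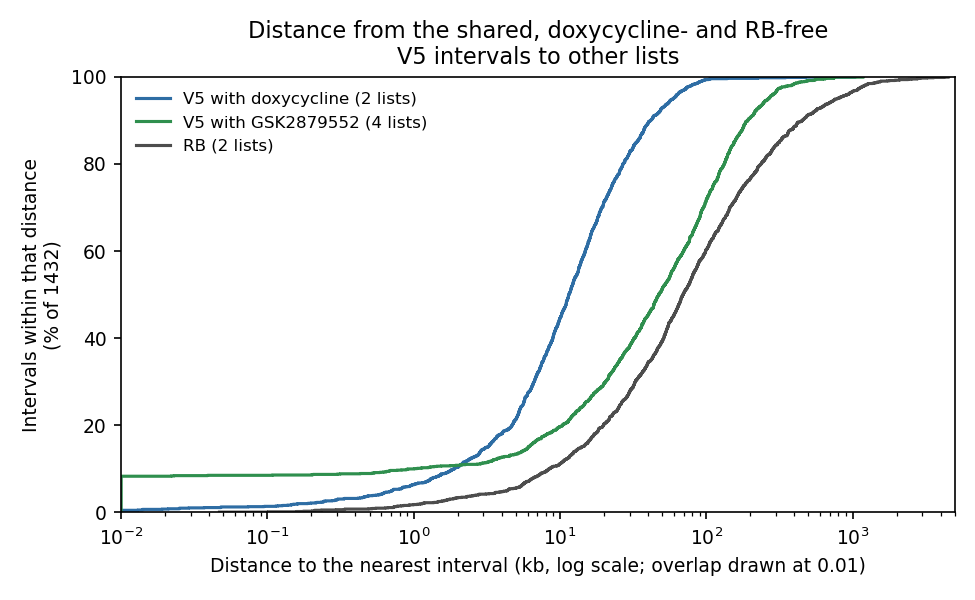
Cumulative share of the 1432 members (y axis, percent) by distance to the nearest interval in kb (x axis, log scale, overlap drawn at the left edge) of the 2 doxycycline lists (blue), the 4 GSK2879552 lists (green) and the 2 RB lists (dark grey). The green curve starts at 8.24%, the members that overlap a GSK2879552 interval, and the blue curve reaches 44.6% at 10 kb against 11.2% for RB.

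Another member was within 100 kb of 138 members (9.64%), and 4 had at least 2 such neighbours. The spacing of an equal number of other intervals was not measured, so these counts give no trait of the members. The most crowded places were chromosome 16 around 33879654 to 33879813 and chromosome 11 around 33419090 to 33419253, each with 2 other members within 100 kb. The other 134 had 1 neighbour each, and among these the naming rule took the one of highest −log10 q in K185R, on chromosome X at 1622464 to 1622644. It had 12 reads in K185R and 11 in WT, and 6 in K185R with both agents.

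The 10 members of high background are set apart only by the cut of 10 times the floor, and 5 of them lay on chromosome 16. The highest was on chromosome 16 at 46394783 to 46394937, beside the heterochromatin of the long arm, with 239 reads in K185R and 232 in WT on a background 590.0 times the floor. Its fold was 1.48 in K185R and 1.52 in WT, and WT with both agents had 227 reads there. On chromosome 19 at 27737487 to 27737681, next to the centromere, K185R had 82 reads and WT 73. The other regions of highest background lay on chromosome 16 at 33879654, at 33240367 and at 34190431, with 32, 26 and 24 reads in K185R and 26, 23 and 25 in WT. Satellite repeats are common in such regions. An RB interval lay 0.202 kb from the first and 0.668 kb from that on chromosome 19. Of the 10, 2 had an interval with GSK2879552, against 116 of the 1422 members of low background (8.16%).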

How the data were processed

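ChIP-seq intervals of 19 libraries in 10 groups were analysed, 1 deposited list per group. MACS2 2.1.0, BWA 0.7.9a, SAMtools 1.2, FastQC 0.11.9 and the build hg19 are listed in the submitters' processing notes; settings, duplicate removal and control libraries are not stated there. For each interval the authors deposited a fold enrichment (ratio), −log10 p and −log10 q, a score (10 times −log10 q) and the summit's offset. Each V5 list is named as merged in its interval names, and the labels give 2 libraries per V5 group.

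Summit reads and local background were solved from fold and −log10 p, as MACS2 adds 1 to both terms of the fold and uses a Poisson p. The floor is the lowest background that 5 or more intervals of a list have in common. The code was tested on simulated data. Python 3.11.15, pandas 2.3.3, NumPy 2.4.6, SciPy 1.17.1 and Matplotlib 3.10.9 were used. Members and lists of comparison classes were chosen with earlier results of these data known; the classes seen in 1 untreated list alone and the mirror class were added after the data had been seen.

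Named regions are the 10 of highest −log10 q at low background, those in all 4 GSK2879552 lists, up to 3 in both lists of 1 protein alone, the 5 of highest background and the 3 with most members within 100 kb. Gene starts, genes and DNA sequence were not used here, since the reference tables at hand are of another build than hg19. The planned checks of motifs, GC content and gene lists were therefore not run. The 9 other settings tried concern overlap, threshold, background and the lists excluded.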

Additional observations from a re-analysis of the deposited data

How the results depend on the processing

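The number of members stayed within 1.5 times of 1432 in 8 of the 9 settings tried, from 1169 (50% overlap of both intervals) to 2032 (WT doxycycline list not used). At −log10 q of at least 5 in every list it was 42, or 14.6% of shared intervals without RB. There the GSK2879552 lists held 7.14% (WT), 14.3% (K185R), 21.4% (WT, both agents) and 7.14% (K185R, both agents), with 35.7% in at least 1, that is 15 of 42 regions. Without the WT doxycycline list these shares were 2.90%, 7.04%, 3.10%, 2.31% and 12.1%, and 74.5% of shared intervals without RB were members. Without the K185R doxycycline list the shares were 6.35% (K185R), 2.38% (WT, both agents), 2.08% (K185R, both agents) and 10.5% in at least 1, and 60.1% were members. With 50% overlap the shares in the WT lists were 2.65% and, with both agents, 2.82%. With summits within 100 bases the WT list with both agents held 2.56%, and 56.0% were members. Excluded lists widened by 1000 bases gave 50.1%. Shares under settings that drop a doxycycline list are taken over more regions, some of which have a doxycycline interval. The 50% overlap, the summit distance and the −log10 q threshold were applied to the excluded lists as well. Regions counted under these settings can therefore overlap a doxycycline or RB interval by the main rule, and need not be among the 1432. Leaving out high-background intervals, the VCaP RB list, or starting from WT intervals moved no share beyond its Wilson interval. The difference between members and shared intervals with a doxycycline interval was negative in each of the 9 settings, from -26.6 to -15.3 percentage points. No paired analysis was possible because the libraries that the labels number within a group were deposited as 1 merged list, and for the same reason no replicate could be left out. The members' median summit of 5 reads lies close to the 3 reads of the faintest interval called; what more depth would show was not tested.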
